A study of Mus musculus with 16 samples.

Results

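The comparison described here is that of a ketogenic diet (KD) with a normal diet (ND) in the nontumor part of livers that also carried tumors. Its members are 8 of the 16 libraries of the series, 4 on each diet, and 13432 of the 20601 genes listed, those with a TPM (transcripts scaled to a fixed total, a level corrected for gene length and library depth) of at least 1 in at least 4 of the 16 libraries. All mice, on either diet, had received 19 µg of a human N-Ras construct, 1 µg of a human c-Myc construct and 2 µg of a plasmid for the Sleeping Beauty transposase by hydrodynamic delivery. Sleeping Beauty is a transposase that inserts the constructs into the genome of the cells that took them up, and this delivery reaches mainly hepatocytes. The KD group was switched 4 weeks later to a chow of 0.1% carbohydrate, 89.5% fat and 10.4% protein and the ND group stayed on normal chow for the same 4 weeks, and tumor and nontumor tissue was taken from 8 mice at week 8. The table of values names the nontumor libraries with a P where their titles have an N. The labels do not explain the P, and these columns were matched to the nontumor samples by diet letters and number, so the identity of all 8 libraries rests on that reading. The labels give no strain, age, sex, fasting state or time of day, and they do not say which tumor and nontumor samples came from 1 mouse. Nontumor tissue here is therefore liver of a mouse with N-Ras and c-Myc tumors, and there was no group without the constructs.

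With almost no dietary carbohydrate, liver burns fatty acids in mitochondria and peroxisomes and exports part of the product as ketone bodies. The nuclear receptor PPAR alpha switches on many genes of these routes when fatty acids arrive. In the other direction, SREBP1c and ChREBP drive the making of new fatty acids when insulin and glucose are high, and SREBP2 drives cholesterol synthesis when sterols in the endoplasmic reticulum run low. Cholesterol leaves the liver as bile acids, whose synthesis starts with CYP7A1.

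The 8 libraries held 3518966 to 11039834 reads over the listed genes, which were recovered from the step size of the deposited TPM values. Replicate 4 on ND was the shallowest, and its listed genes made up 7.38% of the TPM total, against 66.79% to 88.45% in the other 7 libraries, so all libraries were rescaled by the median of gene ratios before any comparison. Reads per library did not separate the diets (exact permutation test, two-sided, p = 0.371). Hepatocyte markers were high in every library: albumin (Alb) lay between 11816 and 37253 and Hnf4a between 238.9 and 346.7 rescaled TPM. Y-linked Ddx3y lay between 17.21 and 28.43 and the female transcript Xist was at most 0.13 in all 8 libraries. The strongest axis of variation was not the diet. The first principal component (34.3% of the variance) set replicates 3 and 4 on KD apart from replicates 1 and 2, and replicates 1 and 4 on ND apart from 2 and 3. The second (20.9%) separated the diets, but much of its spread lay in the shallow ND replicate 4. That library was at -51.3, with ND replicates 1 to 3 at -14.8, -2.5 and -4.6 and the KD libraries at 17.1 to 20.2. The first component moved with transcript length. A gene's deviation from the mean of its own diet and tissue group was rank correlated with its transcript length across genes. The correlation was -0.23 and -0.21 in KD replicates 1 and 2 and 0.22 and 0.18 in 3 and 4. On ND it was -0.14 and -0.26 in replicates 2 and 3 and 0.24 and 0.12 in 1 and 4. Each sign of this trend held 2 libraries of each diet, so the diet difference was also computed within each sign. Deviations taken within a diet favor both signs in each diet and hide a length trend between the diets. Libraries of 1 sign are therefore not matched for length between KD and ND. Of 22 liver tumor and fetal liver genes, 12 were highest in KD replicate 2 and the others, such as Afp, Sox9 and Mycn, were not. Some of the 12 were near 0 even so, such as Igf2 (0.03) and Golm1 (1.34). The share of all genes highest in KD replicate 2 is not given here, and that library had the most genes above 0 of the 8 (16490). H19, an imprinted fetal RNA, stood there at 446.4 rescaled TPM, against 41.8, 1.63 and 15.1 in the other KD libraries and 1.05, 1.25, 2.26 and 88.5 on ND, 226.7 to 2398 in the KD tumors and 22.2 to 410.7 in the ND tumors. The summed level of the 22 genes was 984.7 in KD replicate 2, carried mostly by H19, Spp1 (243.1) and Lcn2 (154.9), 70.1 to 372.7 in the other 7 libraries and at least 2097 in the tumors.

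**Figure D1:**
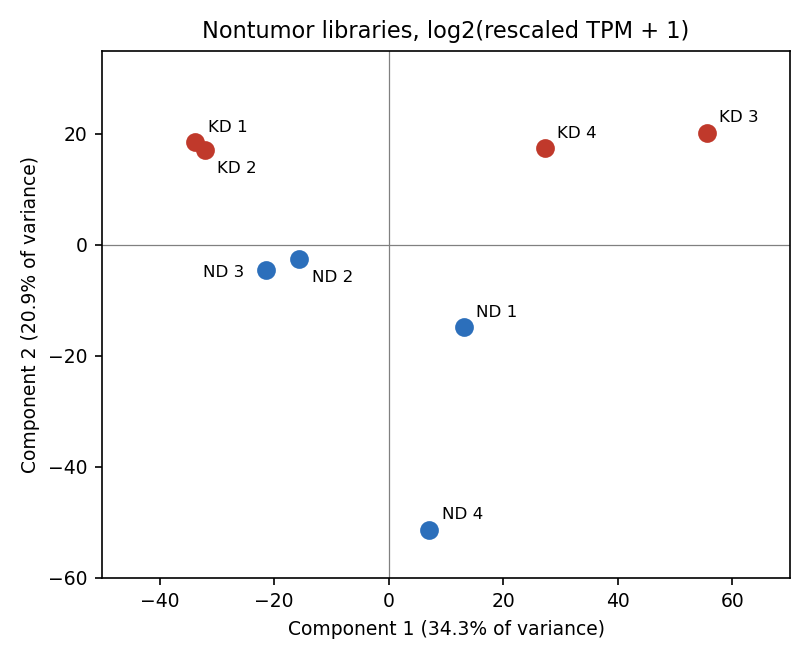
Principal components of the 8 nontumor libraries on log2(rescaled TPM + 1), KD in red and ND in blue, each point 1 library. Component 2 holds all 4 KD libraries at 17.1 to 20.2 and ND libraries 1 to 4 at -14.8, -2.5, -4.6 and -51.3, while component 1 divides each diet into 2 pairs.

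Of the 13432 genes, 7 (0.0521%) passed the test of diet in nontumor liver, which was limma on log2(rescaled TPM + 1) with Benjamini-Hochberg adjusted p under 0.05. Cyp7a1 rose (1 gene, 0.00744%). Scd1, Cyp2c69, Ugt2b37, Tbc1d8, Atg16l2 and Gm11827 fell (6 genes, 0.0447%). At an unadjusted p under 0.05 there were 648 higher (4.82%) and 548 lower (4.08%) genes. The ranges of the diets did not touch for 803 genes (5.98%): all 4 KD libraries lay above all 4 ND libraries for 428 (3.19%) and below them for 375 (2.79%). These last shares are the background for the gene groups described further on. The scale bears on this split: on the deposited values, where the median gene differed by 0.69 in favor of KD, 60 genes passed as higher and 5 as lower and 933 and 2 did not overlap, and with every library brought to a common sum, where the median gene differed by 0.10, these counts were 7 and 6, and 466 and 170. With each library weighted by its own scatter, which gave KD replicates 1 and 2 and ND replicates 2 and 3 the highest weights, 230 genes (1.71%) passed as higher and 203 (1.51%) as lower. These 4 libraries are the ones of negative length trend. Of 146 genes followed across the settings, 44 passed with these weights and not without them, and 44 had a difference below 0 that lay above 0 on the deposited values.

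Scd1 encodes stearoyl-CoA desaturase, which puts the double bond into saturated fatty acids to make oleate and palmitoleate (chr19:44394455-44407879, minus strand, GRCm38). Its level in KD libraries 1 to 4 was 22.8, 76.3, 50.2 and 56.4 rescaled TPM, and in ND libraries 1 to 4 it was 1068, 997.1, 883.6 and 943.9. The groups lay far apart, at means of 51.4 ± 22.1 and 973.2 ± 78.6 (SD, n = 4 each), an 18.9-fold ratio. The difference was -4.33 ± 0.39 on the log2 scale (standard error, as for all log2 differences here; adjusted p = 6.31e-05), with 729 to 2520 reads behind the KD values and 9819 to 28360 behind the ND values. It was as large in the libraries of negative length trend (-4.46) as in those of positive trend (-4.21).

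Cyp7a1, whose product starts the conversion of cholesterol to bile acids and limits its rate (chr4:6265612-6275633, minus strand), was the single gene that passed as higher. Its rescaled TPM was 15.1, 18.4, 17.6 and 23.9 on KD and 4.24, 3.68, 2.71 and 2.25 on ND. Every KD library lay well above every ND library, and the means of 18.7 ± 3.71 and 3.22 ± 0.902 gave a ratio of 5.82. On the log2 scale it rose by 2.23 ± 0.25 (adjusted p = 0.000588). The labels give no fasting state or hour of sampling, so a part of either in this rise cannot be told apart from diet.

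**Figure D2:**
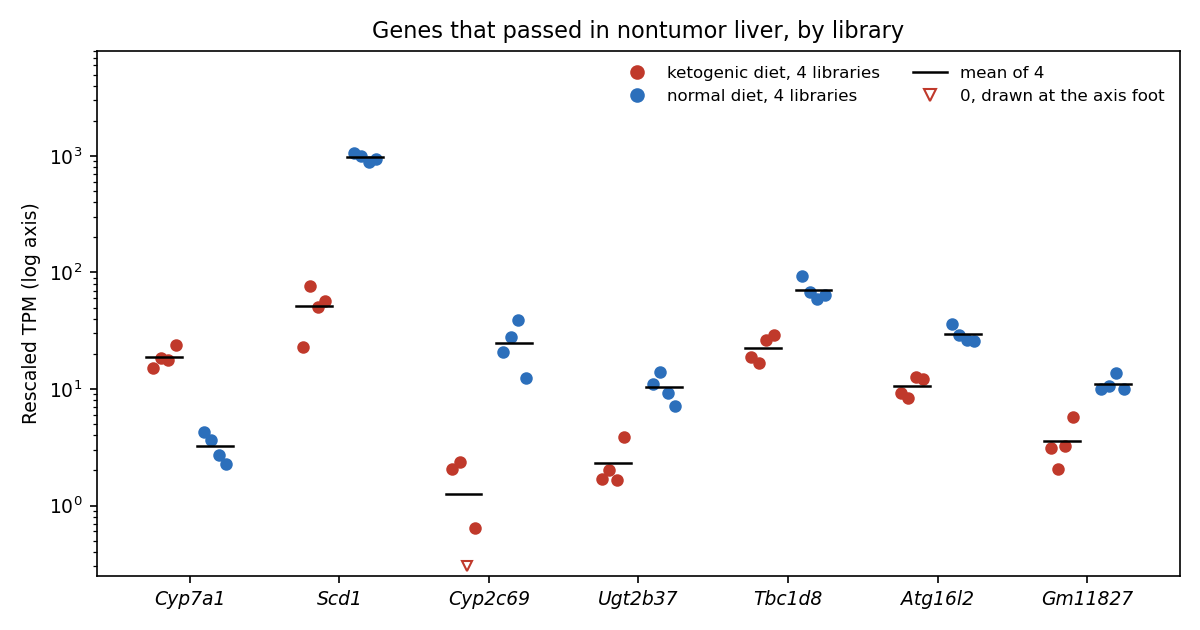
Rescaled TPM (log axis) of the 7 genes that passed, 1 point per library, KD in red and ND in blue, with the mean of 4 as a bar. The groups do not overlap for any of the 7, and the open triangle marks the KD library in which Cyp2c69 was at 0.

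Cyp2c69 is a cytochrome P450 of a cluster of closely related genes, and one of the female-biased liver genes of the mouse (chr19:39842814-39886799, minus strand). On KD it stood at 2.06, 2.34, 0 and 0.641 rescaled TPM and on ND at 20.6, 28.1, 39 and 12.4. The KD values rest on 23, 27, 0 and 4 reads and the ND values on 191, 219, 324 and 45. The gene fell by 3.57 ± 0.41 (adjusted p = 0.000588), but its call was lost with a pseudocount of 0.1 (adjusted p = 0.152), with factors from the 8 nontumor libraries (0.0757), in a fit of those 8 alone (0.0814) and in an added fit of the recovered reads (0.0544). Its neighbours in the cluster did not pass. Cyp2c40 stood at 2.17, 3.05, 0.437 and 0.941 on KD and 18.7, 12.2, 20.1 and 7.16 on ND, a difference of -2.57 ± 0.46 (adjusted p = 0.0534). The groups were apart for this gene too. Cyp2c68 was more abundant, with 169.9, 160.4, 48.9 and 87.5 on KD against 204.2, 276.9, 304.2 and 187.9 on ND (-1.19 ± 0.35, adjusted p = 0.246). For Cyp2c67 the groups overlapped, with 52.9 to 203.8 on KD and 108.9 to 204.5 on ND (-0.62 ± 0.42, adjusted p = 0.743).

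The promoter windows of these 4 genes are shown because the genes lie side by side, are near copies of each other and had differences from -3.57 to -0.62. Each window is RefSeq sequence on GRCm38.p6, from 250 bases before to 50 bases after the annotated start on the minus strand of chromosome 19, printed 5′ to 3′. Capitals mark bases that differ from the Cyp2c69 window in a global alignment, or that have no partner in it. The windows span chr19:39886720-39887019 (Cyp2c69), chr19:39812765-39813064 (Cyp2c40), chr19:39741052-39741351 (Cyp2c68) and chr19:39648993-39649292 (Cyp2c67).
Cyp2c69: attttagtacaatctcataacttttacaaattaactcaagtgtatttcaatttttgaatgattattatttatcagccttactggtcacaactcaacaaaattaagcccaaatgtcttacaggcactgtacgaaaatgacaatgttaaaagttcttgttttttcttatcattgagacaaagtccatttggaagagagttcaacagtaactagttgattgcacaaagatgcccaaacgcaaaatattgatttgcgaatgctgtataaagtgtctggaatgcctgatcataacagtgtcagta
Cyp2c40: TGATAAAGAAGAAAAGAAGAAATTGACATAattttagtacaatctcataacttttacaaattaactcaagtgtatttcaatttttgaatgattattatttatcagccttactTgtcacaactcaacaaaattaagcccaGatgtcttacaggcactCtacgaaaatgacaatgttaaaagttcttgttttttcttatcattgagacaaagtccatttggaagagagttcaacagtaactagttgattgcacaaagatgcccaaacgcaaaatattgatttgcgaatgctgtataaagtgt
Cyp2c68: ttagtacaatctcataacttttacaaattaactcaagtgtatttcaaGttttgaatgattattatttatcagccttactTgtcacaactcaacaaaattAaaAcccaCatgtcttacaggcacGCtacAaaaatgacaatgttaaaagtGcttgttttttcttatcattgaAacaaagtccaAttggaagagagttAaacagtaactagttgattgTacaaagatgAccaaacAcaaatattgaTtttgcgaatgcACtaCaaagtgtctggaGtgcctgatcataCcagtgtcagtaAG
Cyp2c67: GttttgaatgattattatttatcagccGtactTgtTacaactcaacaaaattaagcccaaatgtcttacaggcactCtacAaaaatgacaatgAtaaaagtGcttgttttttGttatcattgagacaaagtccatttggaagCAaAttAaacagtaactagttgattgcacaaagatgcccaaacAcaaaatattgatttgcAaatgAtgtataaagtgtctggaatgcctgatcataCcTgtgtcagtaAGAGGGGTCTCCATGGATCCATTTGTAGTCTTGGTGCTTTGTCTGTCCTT
Of the aligned base pairs, 98.9% were identical between Cyp2c40 and Cyp2c69 (3 different of 270), 93.6% between Cyp2c68 and Cyp2c69 and 92.8% between Cyp2c67 and Cyp2c69. The Cyp2c40 window opens with 30 bases that have no partner, since its annotated start lies that far upstream of the matching base. The 2 genes with the most alike windows were also those at the lowest levels. Genes this alike can share reads, and how the counting treated such reads is not given in the sources used here, so the values of single members of the cluster are uncertain.

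Ugt2b37 belongs to the UDP-glucuronosyltransferases, which attach glucuronic acid to steroids, bile acids and drugs (chr5:87240493-87254804, minus strand). It fell by 1.80 ± 0.31 (adjusted p = 0.0486), from 11.1, 14.1, 9.23 and 7.2 rescaled TPM on ND to 1.69, 2.03, 1.64 and 3.9 on KD. It too has close copies, and its p lay just under the threshold: leaving out any 1 of replicates 1 to 3 of either diet ended the call (adjusted p = 0.0921 to 0.164), as did most changes of scale, pseudocount or filter. Tbc1d8, which encodes a protein with the TBC domain of Rab GTPase regulators (chr1:39371492-39478755, minus strand), stood at 18.8, 16.7, 26.2 and 29.1 on KD and 93.7, 67.5, 59.7 and 63.9 on ND. It fell by 1.62 ± 0.23 (adjusted p = 0.00546), with no overlap between the groups. Atg16l2, a paralog of the autophagy gene Atg16l1 (chr7:101263034-101302251, minus strand), was at 9.16, 8.44, 12.6 and 12.1 on KD and 36.4, 29.2, 26.4 and 25.6 on ND. The groups were well apart, and the gene fell by 1.40 ± 0.18 (adjusted p = 0.00178). Gm11827, a predicted gene on chromosome 4 with 19 to 91 reads a library, stood at 2.06 to 5.8 on KD and 9.97 to 13.7 on ND and fell by 1.46 ± 0.25 (adjusted p = 0.0482), a call that leaving out any 1 library other than KD replicate 4 ended (adjusted p = 0.0635 to 0.143). The calls of Tbc1d8 and Atg16l2 were lost in 4 settings: a fit of the 8 nontumor libraries alone (adjusted p = 0.106 and 0.0855), factors from those 8 (0.0959 and 0.0757), a common sum (0.0914 for each) and the deposited values (0.393 and 0.456). On the deposited values their differences were -0.70 and -0.54.

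Scd1 was the single lipogenesis gene that passed. Of the 34 lipogenesis genes tested, 3 lay above and 2 below without overlap, and the median difference was 0.07, against 0.01 over all genes tested. Elovl6, which lengthens palmitate to stearate just before the SCD1 step, was at 6.32, 8.36, 17.1 and 26.3 rescaled TPM on KD and 42.1, 39.6, 33.7 and 30.4 on ND. Its groups did not overlap, and its difference of -1.45 ± 0.35 did not pass (adjusted p = 0.136). The 3 genes that lay above were the delta-6 desaturase Fads2 (119.4 to 248.5 on KD, 44.4 to 93.9 on ND), the triglyceride synthase Dgat2 (243.2 to 257.3 on KD, 112.4 to 175.6 on ND) and Fads6 (13.8 to 24.2 on KD, 9.93 to 12.8 on ND). None of the 3 passed, with adjusted p of 0.127, 0.136 and 0.343.

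The regulators and core enzymes of lipogenesis were split within the KD group. Srebf1, the gene of SREBP1, was at 60.5 and 64.6 rescaled TPM in KD replicates 1 and 2 and at 216.5 and 228 in replicates 3 and 4, with all ND libraries between 71.8 and 96.7. Fatty acid synthase (Fasn) showed the same split, with 46.1, 50.4, 121.8 and 179.1 on KD and 55.8 to 80.1 on ND. The liver pyruvate kinase gene Pklr, a ChREBP target, was at 23.7 and 33.3 in replicates 1 and 2 and at 139.5 and 144.1 in 3 and 4 on KD, and between 31.6 and 50.2 on ND. ATP citrate lyase (Acly) and Thrsp also had replicates 1 and 2 at or below the lowest ND library and replicates 3 and 4 above the highest, with values of 16.6, 25.9, 67 and 68.3 for Acly and 52, 69.1, 181.9 and 290.1 for Thrsp. None of these 5 genes passed (adjusted p = 0.728 to 0.986). Within the negative and the positive length trend the diet difference was -0.27 and 1.29 for Srebf1, -0.21 and 1.09 for Fasn and -0.26 and 1.68 for Pklr. For Acly it was -0.61 and 0.75, and for Thrsp -1.2 and 1.01. Replicates 3 and 4 are the KD libraries with positive length trend, and the part of that trend in the values of these 5 genes was not tested. Scd1 and Elovl6 were below every ND library in all 4.

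**Figure D3:**
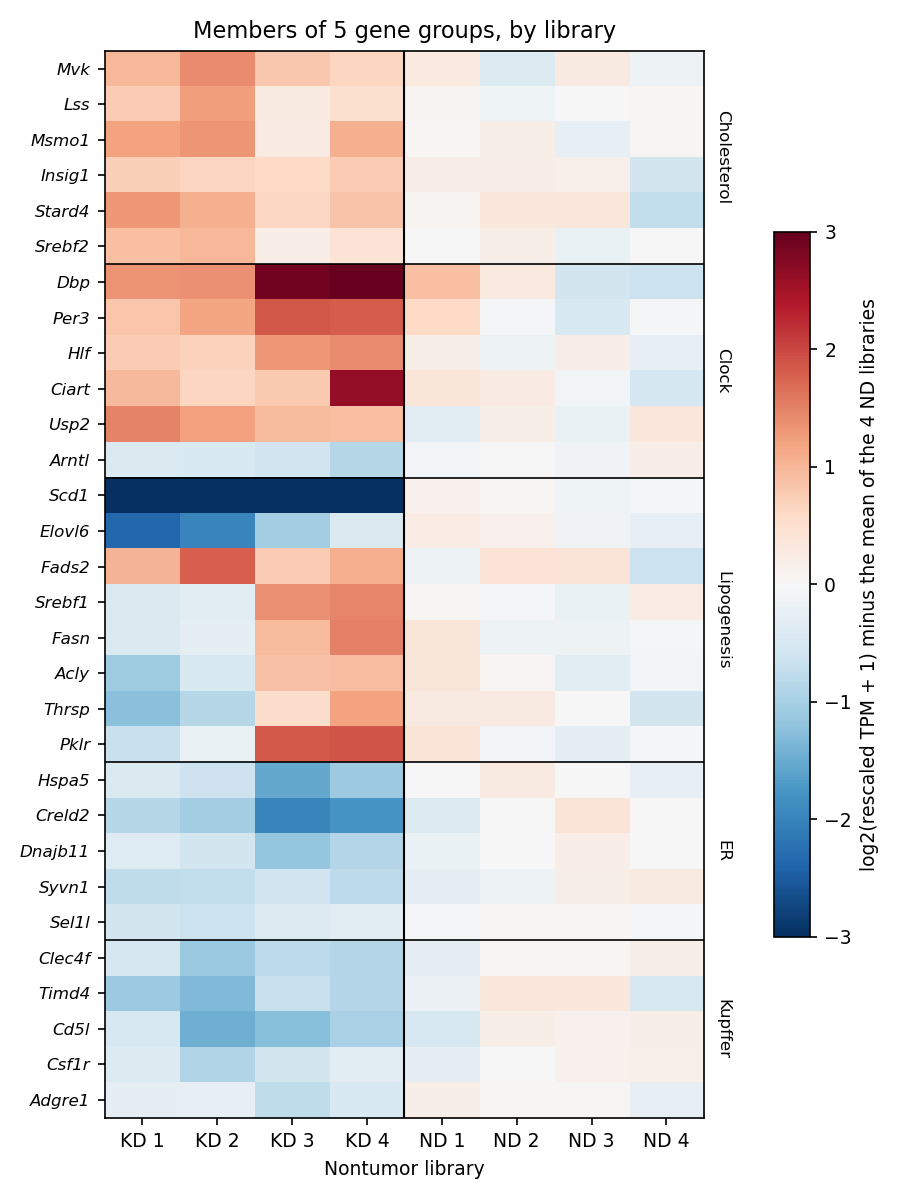
Heat map of log2(rescaled TPM + 1) in each nontumor library minus the mean of the 4 ND libraries, for genes of 5 groups, with colors ending at 3 and -3. Outside lipogenesis only members whose diet groups do not overlap are drawn, so their even color follows from that choice. Overlapping members such as Hmgcs1, Nr1d1, Calr and Id3 are left out. The cholesterol and clock genes drawn are red across the 4 KD libraries apart from Arntl, and the endoplasmic reticulum and Kupffer genes drawn are blue. Lipogenic genes other than Scd1, Elovl6 and Fads2 change color between KD replicates 2 and 3.

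Many cholesterol synthesis genes lay higher on KD, though none passed. Among 27 tested members of that list, which holds the pathway's enzymes and other SREBP2 targets, 10 lay above all ND libraries (37.0%, against 3.19% of all genes) and 0 below. The median difference was 0.54, and 25 of the 27 were above 0, but 0 passed in limma at an adjusted p under 0.05, against 12 higher and 0 lower at an unadjusted p under 0.05. Srebf2, the gene of the regulator SREBP2 itself, stood at 19.1, 20.5, 11.4 and 13.2 rescaled TPM on KD against 9.85, 11.2, 8.3 and 9.75 on ND (0.63 ± 0.18, adjusted p = 0.245). KD replicates 1 and 2 were the highest of the 8 libraries.

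Enzymes of the pathway followed the same order. Mevalonate kinase (Mvk) lay at 7.67 to 13.8 on KD and 3.2 to 5.86 on ND, lanosterol synthase (Lss) at 5.18 to 11.2 and 3.64 to 4.39, and the sterol methyl oxidase Msmo1 at 9.16 to 20.6 and 6.23 to 8.61. The sterol reductase gene Tm7sf2 was at 17.7 to 20.3 against 10 to 15.6. Outside synthesis, the sterol carrier gene Stard4 was at 12.7 to 20.9 against 4.29 to 10.2. Insig1, which holds SREBP in the endoplasmic reticulum when sterols are plentiful, was at 107.4 to 120.3 on KD and 47.4 to 81.3 on ND. Hmgcs1, the most abundant enzyme of the list, overlapped, with 36.1 to 130.5 on KD and 49.1 to 143.3 on ND (adjusted p = 0.973). The list's median stayed above that of all genes on the deposited scale (by 0.52) and with the listed genes scaled to a common sum (by 0.51), was 0.50 without ND replicate 4 and 0.42 without KD replicate 2, and was 0.76 within the negative and 0.30 within the positive length trend. With the libraries weighted by their scatter, 10 of the 27 passed, all higher.

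Bile acid genes other than Cyp7a1 lay on either side. Of 29 tested, 1 passed, 4 lay above (13.8%) and 2 below (6.9%), with a median of 0.17. This median was -0.09 within the negative and 0.41 within the positive length trend. Besides Cyp7a1 those above were the bile acid importer Slc10a1 (143.9 to 214.1 on KD, 75.7 to 135.2 on ND), the sterol exporter Abcg8 (46.4 to 97.1 and 26.2 to 41.1) and Akr1c6 (231.2 to 288.9 and 129.8 to 211.6). The phospholipid exporter Abcb4 (79.7 to 104.5 and 123.9 to 162.4) and the basolateral exporter Abcc3 (54.1 to 75.1 and 76.4 to 101.4) lay below. On the deposited values they differed by 0.41 and 0.53, above 0 but under the 0.69 of the median gene there. The separated bile acid genes were 2 above and 0 below with a common sum, and 5 above and 0 below on the deposited values. Cyp8b1, which sets the share of cholic acid, was at 69.5 to 182 on KD and 77.7 to 156.5 on ND (0.14 ± 0.37, adjusted p = 0.954).

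Genes of fatty acid oxidation and ketone bodies lay higher on KD for some members, though none passed. Of 39 PPAR alpha targets tested, 0 passed in limma (10 higher and 3 lower at an unadjusted p under 0.05), 5 lay above (12.8%) and 0 below, and the median was 0.30, with 31 above 0. The list's median was 0.30 and 0.36 within the negative and positive length trend. Without ND replicate 4, 5 of the list lay above and 3 below, and of all 13432 genes 712 and 589. The genes above were 13 with a common sum and 11 on the deposited values. With weighted libraries 6 passed as higher and 2 as lower. Ehhadh, the peroxisomal bifunctional enzyme, stood at 169.6, 106.4, 34.7 and 50.6 rescaled TPM on KD and 12.5, 31.1, 33.5 and 21.1 on ND (1.67 ± 0.45, adjusted p = 0.205). Its KD values spread widely, and the lowest of them was just above the highest ND value. The means were 90.3 and 24.5, a ratio of 3.68. Aldh3a2, a fatty aldehyde dehydrogenase, lay at 98.6 to 189.7 against 44.1 to 81.9 (1.16 ± 0.28, adjusted p = 0.136). The others above were the thioesterase genes Acot3 (2.26 to 4.26 against 0.536 to 2.23) and Acot4 (8.85 to 14.6 against 6.06 to 8.19) and the peroxisomal thiolase Acaa1a (175.8 to 205.9 against 131.4 to 172.1). Ehhadh, Aldh3a2 and Acot3 passed as higher with weighted libraries (adjusted p = 0.00625, 0.00771 and 0.0245).

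Several well known targets overlapped between diets. Cpt1a, the gate of mitochondrial fatty acid entry, was at 56.1, 69.1, 75 and 85.6 on KD and 77.1, 64.1, 69.1 and 43.4 on ND (0.18 ± 0.21, adjusted p = 0.874). The fatty acid binding protein gene Fabp1 spread from 3345 to 21619 on KD and from 5587 to 17320 on ND (0.17 ± 0.59, adjusted p = 0.973). The fasting hormone Fgf21 was at 42.9 to 62.2 on KD and 19.8 to 46.3 on ND (0.59 ± 0.27, adjusted p = 0.538), and Cyp4a14, a fatty acid omega-hydroxylase, at 265.7 to 858.8 and 40 to 314.5 (1.66 ± 0.65, adjusted p = 0.439). Pdk4, which blocks glucose oxidation, was at 0.95 to 5.91 on KD and 4.15 to 6.94 on ND (-0.86 ± 0.38, adjusted p = 0.520). Angptl4, an inhibitor of lipoprotein lipase, was at 131.9, 93.5, 161.7 and 198.4 on KD against 254, 282.3, 275.8 and 155.4 on ND, a difference below 0 (-0.74 ± 0.28, adjusted p = 0.400). Angptl4 passed as lower with weighted libraries (adjusted p = 0.0111), and its difference was -1.32 within the negative length trend and -0.15 within the positive. On the deposited values Angptl4 differed by 0.22, against 0.69 for the median gene.

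In mitochondrial beta-oxidation 3 of 28 tested genes lay above (10.7%) and 0 below, with a median of 0.28. These were the short-chain dehydrogenase Acads (48.4 to 58.9 on KD, 28.7 to 35 on ND), Acsm1 (209.5 to 258.3 and 99.3 to 191.4) and Acsm3 (4.45 to 9.96 and 1.14 to 2.98). With a common sum, and on the deposited values, 10 of the 28 lay above. Of 10 ketone body genes 1 lay above and 0 below. Among 60 subunits of the respiratory chain 5 lay above (8.3%), 0 below and 0 passed, with a median of 0.11. That median was -0.05 without ND replicate 4 and -0.08 without KD replicate 2. With a common sum 10 lay above and 1 below, and on the deposited values 8 and 0. The 5 were Ndufv1, Sdha, Sdhd, Cyc1 and Atp5b. Succinate dehydrogenase Sdhd had the widest gap of these, with 60.2 to 72.7 on KD and 34.4 to 47.6 on ND.

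Lipid droplet and fatty acid uptake genes gave 3 above and 1 below of 33 tested. G0s2, an inhibitor of the triglyceride lipase ATGL, was at 346.9, 278.4, 434.6 and 424.6 on KD and 867, 1424, 1567 and 629 on ND. The groups were apart, and the difference of -1.52 ± 0.37 did not pass (adjusted p = 0.142). Those above were the endothelial lipase gene Lipg (8.29 to 13.8 on KD, 0.997 to 7.36 on ND), Vldlr (0.652 to 1.5 and 0.123 to 0.374) and the droplet protein gene Hsd17b13 (153.3 to 252.8 and 96.1 to 144.2). Plin2, the coat protein of droplets, was at 56.2 to 150.5 over all 8 libraries (adjusted p = 0.682), and Cidec, which fuses droplets, at 15.8 to 67.5 on KD and 7.15 to 23.5 on ND (1.40 ± 0.45, adjusted p = 0.319).

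Glucose metabolism held few separated genes. In glycolysis 2 of 30 tested genes lay above, among them Pfkm (9.26 to 11.1 on KD and 4.97 to 8.73 on ND), and 1 below (Hk3, at 2.49 to 4.23 and 4.83 to 6.64), and in gluconeogenesis 0 of 20 did in either direction, with medians of 0.09 and 0.01. On the deposited values 6 glycolysis and 5 gluconeogenesis genes lay above and 0 below, and with a common sum 5 and 1 lay above. Pck1, the gate of gluconeogenesis, was at 2527 to 4240 on KD and 3259 to 4751 on ND (-0.28 ± 0.35, adjusted p = 0.882). Of 17 glycogen genes 3 lay above, among them the branching enzyme gene Gbe1 (7.87 to 10.2 against 4.83 to 6.97) and Stbd1 (38.7 to 45.5 against 20.5 to 32.8). In the urea cycle Cps1, its first enzyme, was at 224.7, 190.7, 222.5 and 227.6 on KD and 307.5, 338.1, 335.7 and 252.1 on ND, all KD libraries lower (-0.50 ± 0.28, adjusted p = 0.658), and it was the 1 separated gene of 13. On the deposited values its difference was 0.45, against 0.69 for the median gene.

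Among 21 secreted proteins that answer to nutrition 1 lay above and 2 below. Hamp, which encodes the iron hormone hepcidin, was at 14794, 12233, 4223 and 5092 on KD and 6161, 414.9, 383.8 and 2476 on ND. The groups overlapped through ND replicate 1, and the difference of 2.66 ± 0.87 did not pass (adjusted p = 0.323), while it passed with weighted libraries (adjusted p = 0.00507). It was 5.07 within the negative length trend, whose libraries have the highest weights, and 0.25 within the positive.

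Hormone signalling genes lay on either side. Of 24 growth hormone, IGF and insulin genes tested 2 lay above, 3 below and 0 passed. Socs2, which growth hormone induces and which dampens its receptor, stood at 9.42, 10.1, 18.2 and 17.2 on KD and 34.7, 27.7, 27.2 and 27.4 on ND (-1.08 ± 0.24, adjusted p = 0.127). Igf1, the growth hormone target that liver secretes, stood at 183.8, 169.4, 130.9 and 195.8 against 235.3, 339.3, 389.5 and 263.8 (-0.84 ± 0.35, adjusted p = 0.483), and the insulin receptor gene Insr at 14.2 to 15.3 against 16.7 to 23.4. Both Socs2 and Igf1 were lower in every KD library. On the deposited values Igf1 differed by 0.12 and Insr by 0.50, against 0.69 for the median gene. Igfbp2, a binding protein of IGF, lay above at 247.7 to 616.5 against 69.2 to 212.1, and so did Foxa2, a hepatocyte transcription factor, at 56 to 61 against 27.4 to 41.6. In the list of 27 hepatocyte factors 4 lay above (14.8%) and 0 below: Foxa2, Ppara (17.6 to 41.6 against 6.13 to 15.7), Rxra (85.4 to 109.3 against 51.4 to 74.8) and Nr1i3. The median of that list was 0.13, and it changed sign with the length trend, from -0.12 within the negative to 0.44 within the positive. Nr1i3, the xenobiotic receptor CAR, stood at 26.3, 20.3, 26 and 26.8 on KD and 5.72, 8.85, 10.7 and 11.3 on ND (1.38 ± 0.27, adjusted p = 0.0936). Its groups were well apart.

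Drug metabolism genes split. Of 62 tested 1 passed (Cyp2c69, lower), 8 lay above (12.9%) and 6 below (9.7%), with a median of -0.03. The Cyp2c members Cyp2c37 and Cyp2c50 were among those below, at 282.4 to 611.5 against 624.1 to 1328 and 177.6 to 280.7 against 302.1 to 681.4. Of 19 female-biased genes 2 lay above and 2 below, and of 30 male-biased genes 1 above and 0 below, with medians of 0.36 and -0.45. Without ND replicate 4 the female-biased genes were 4 above and 2 below, and the male-biased genes 1 above and 4 below with a median of -0.71. Leaving out a library eases the condition: over all 13432 genes 712 lay above and 589 below without it, against 428 and 375 with it. The male-biased median changed sign with the length trend, from -0.69 within the negative to 0.18 within the positive. Among 26 targets of the antioxidant factor NRF2, 3 lay below (11.5%) and 0 above, and on the deposited values 0 and 1. The glutathione transferase genes Gstm3 and Gstm2 were 2 of them. Gstm3 was at 18.9, 13.4, 1.87 and 2.51 on KD and 21.9, 78.2, 91.8 and 50.6 on ND (-2.89 ± 0.61, adjusted p = 0.113), and Gstm2 at 27.6, 21.9, 10.1 and 14.2 against 29.9, 76.1, 94.6 and 46.8 (-1.66 ± 0.36, adjusted p = 0.118). In both genes ND replicate 1 was close to KD replicate 1. Gstm genes are near copies too and can share reads. Both passed in a setting chosen after seeing the data, with the length trend of each library as a covariate in a fit of the 8 nontumor libraries (adjusted p = 0.00496 for each). That setting also called Ehhadh (0.0271), Aldh3a2 (0.00925), Acads (0.0334), Per3 (0.0249), Creld2 (0.0102), Socs2 (0.0397) and Cyp2c40 (0.0372), each in the direction given here.

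After cholesterol synthesis, the clock list had the highest share of members above. The clock is a loop in which BMAL1 (Arntl) and CLOCK bind E-boxes and switch on Per, Cry and Nr1d1, and the output factors DBP, TEF and HLF bind D-boxes. Of 19 genes tested, 5 lay above (26.3%), 1 below (5.3%) and 0 passed in limma (8 higher and 1 lower at an unadjusted p under 0.05), with a median of 0.45. Dbp was at 23.4, 24, 70.9 and 100.5 rescaled TPM on KD and 17.2, 10.8, 5.57 and 5.18 on ND (2.25 ± 0.54, adjusted p = 0.136). KD replicates 3 and 4 held far more Dbp than KD replicates 1 and 2, and on ND replicate 1 was the highest. Per3 was at 2.97, 4.04, 7.06 and 6.84 on KD and 2.36, 1.14, 0.621 and 1.13 on ND (1.42 ± 0.36, adjusted p = 0.176), and Ciart, a repressor of BMAL1 and CLOCK, at 7.63, 5.96, 6.59 and 26.3 against 4.65, 4.27, 3.18 and 2.08 (1.25 ± 0.41, adjusted p = 0.313). KD replicate 4 stood far above the others for Ciart.

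Hlf (10.5 to 18.3 on KD, 5.07 to 7.3 on ND) and the deubiquitinase gene Usp2 (11 to 16.9 and 4.13 to 7.12) completed those above. Arntl was the gene below, at 3.13, 3.09, 2.78 and 2.07 on KD and 4.29, 4.58, 4.21 and 5.38 on ND (-0.58 ± 0.27, adjusted p = 0.561). Its difference was 0.06 on the deposited values, against 0.69 for the median gene. Nr1d1, the repressor REV-ERB alpha, overlapped, with 70 to 147.7 on KD and 72.1 to 91.6 on ND (adjusted p = 0.821). Since these transcripts cycle over the day and the labels give no time of sampling, a diet difference and a difference in hour cannot be told apart. The list's median was 0.17 within the negative and 0.75 within the positive length trend, and 0.42 without ND replicate 4. On the deposited scale and with a common sum it lay 0.53 and 0.46 above the median of all genes, and the genes without overlap were 5 above and 0 below, and 2 above and 0 below.

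The windows of Per3 and Ciart are shown because their genes were among the separated ones and hold repeated clock motifs. Both are RefSeq sequence on GRCm38.p6 on the minus strand, from 250 bases before to 50 after the start, 5′ to 3′, at chr4:151044616-151044915 for Per3 and chr3:95882179-95882478 for Ciart. Capitals mark matches to the D-box TTANGTAA in Per3 and to the E-box CACGTG in Ciart, searched on both strands.
Per3: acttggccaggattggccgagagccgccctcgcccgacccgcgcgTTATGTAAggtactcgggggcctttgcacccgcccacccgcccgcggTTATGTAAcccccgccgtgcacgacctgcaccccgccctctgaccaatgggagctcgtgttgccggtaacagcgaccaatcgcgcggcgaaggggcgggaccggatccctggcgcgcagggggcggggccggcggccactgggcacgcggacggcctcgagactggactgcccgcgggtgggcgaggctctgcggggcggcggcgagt
Ciart: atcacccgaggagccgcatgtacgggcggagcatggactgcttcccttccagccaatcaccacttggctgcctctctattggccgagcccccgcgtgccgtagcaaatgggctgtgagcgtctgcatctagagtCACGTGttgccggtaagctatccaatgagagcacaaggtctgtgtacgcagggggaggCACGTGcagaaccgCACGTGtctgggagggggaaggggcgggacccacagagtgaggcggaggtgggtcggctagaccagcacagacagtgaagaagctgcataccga
Per3 holds 2 D-box matches, whose first bases lie at -205 and -158 from the start, and Ciart holds 3 E-box matches at -116, -58 and -44. A D-box match is held by 2.323% and an E-box match by 7.15% of all 32851 windows given. The 16 tested clock genes with a window have 21 windows, of which 6 hold an E-box match and 1 a D-box match. Counted by gene, 5 hold an E-box match (Bhlhe41, Ciart, Cry1, Per1 and Tef) and 1 a D-box match (Per3). A match describes the letters and was not tested for binding.

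Many genes of protein folding in the endoplasmic reticulum lay lower on KD, though none passed. Of 28 tested 5 lay below all ND libraries (17.9%, against 2.79% of all genes), 0 above and 0 passed in limma (0 higher and 9 lower at an unadjusted p under 0.05), and the median was -0.50, with 24 of 28 below 0. Hspa5, the master chaperone BiP, was at 311.4, 273.8, 144.4 and 196.1 rescaled TPM on KD and 413.5, 508.9, 413.7 and 353.7 on ND (-0.91 ± 0.28, adjusted p = 0.277). Creld2, a target of the unfolded protein response, was at 157, 140, 71.5 and 82.2 against 214.9, 283.3, 371.7 and 288.8 (-1.41 ± 0.30, adjusted p = 0.113). In both genes KD replicates 3 and 4 were the lowest. Dnajb11, a partner of BiP, lay at 35.8 to 62.5 against 71 to 93.5, and Syvn1 and Sel1l, the core of the machinery that returns misfolded proteins for degradation, at 182.3 to 213.1 against 259.1 to 380.6 and at 30.3 to 37.3 against 46.5 to 49.2. Calr, the most abundant gene of the list, overlapped, with 246.9 to 568.2 on KD and 438.9 to 733.5 on ND (-0.59 ± 0.26, adjusted p = 0.520). The median was -0.25 and -0.59 within the negative and positive length trend, and 6 genes lay below without ND replicate 4, as did 589 of all 13432 genes. Relative to all genes it was -0.27 on the deposited scale, where 0 genes were separated, and -0.49 with a common sum, where 8 lay below. On the deposited values themselves Hspa5 differed by 0.04, Dnajb11 by 0.19, Syvn1 by 0.25, Sel1l by 0.43 and Calr by 0.37, and Creld2 by -0.45. All but Creld2 were above 0 there, and all were under the 0.69 of the median gene.

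**Figure D4:**
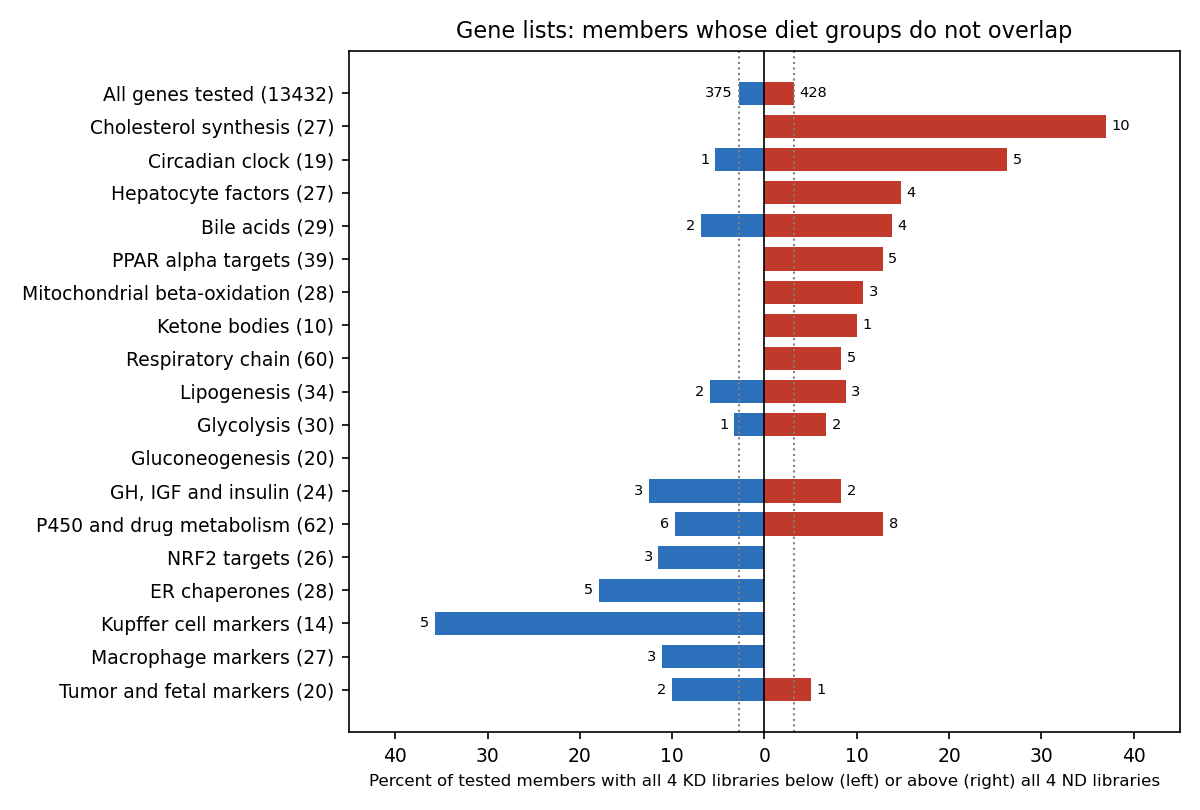
Percent of the tested members of each list (number in brackets) with all 4 KD libraries above (red, right) or below (blue, left) all 4 ND libraries, with the gene count at each bar and the shares of all genes tested, 3.19% and 2.79%, as dotted lines. Cholesterol synthesis (10 of 27) and the clock (5 of 19) reach furthest to the right, and Kupffer markers (5 of 14) and endoplasmic reticulum chaperones (5 of 28) furthest to the left.

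Several markers of Kupffer cells, the resident macrophages of liver, lay lower on KD. Of 14 tested 5 lay below (35.7%), 0 above and 0 passed in limma (0 higher and 5 lower at an unadjusted p under 0.05), and the median was -0.56 with 12 below 0. Clec4f, a receptor found on Kupffer cells, was at 94.4, 61.9, 77.4 and 73.2 rescaled TPM on KD and 111.2, 137.9, 140.8 and 152.2 on ND (-0.82 ± 0.27, adjusted p = 0.327). Timd4 was at 4.22, 3.41, 6.04 and 5.04 against 8.82, 13.2, 12.9 and 6.92 (-0.99 ± 0.31, adjusted p = 0.277), and Cd5l at 35.7, 17.7, 20.3 and 25.1 against 35.8, 56.5, 55.4 and 56.8 (-1.04 ± 0.40, adjusted p = 0.419). The groups were apart in all of these, by a hair for Cd5l. The general macrophage genes Csf1r (11.7 to 18.3 against 18.6 to 25.7) and Adgre1 (1.51 to 2.61 against 2.61 to 3.87, which nearly touch) made up the count. Id3, the most abundant gene of the list, overlapped and went the other way. It was at 97.4 to 191.2 on KD and 63.3 to 143.6 on ND (0.38 ± 0.30, adjusted p = 0.784), 1 of 2 tested members above 0. The summed level of the 15 listed markers overlapped, at 620.9, 425.2, 354.1 and 368.5 on KD and 528.1, 642.1, 574.3 and 590.4 on ND. In bulk tissue, fewer cells of a type and less RNA per cell cannot be told apart. The median was -0.62 and -0.44 within the 2 signs of length trend, and relative to all genes -0.42 on the deposited scale, where 0 were separated, and -0.55 with a common sum, where 4 were. On the deposited values themselves Clec4f differed by 0.13, Csf1r by 0.32 and Adgre1 by 0.06, all above 0 but under the 0.69 of the median gene.

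Among 27 markers of monocytes and recruited macrophages 3 lay below (Fcgr3, Lgals3 and Mpeg1) and 0 above, with a median of -0.36, and 0 were separated on the deposited values. The 7 neutrophil, 16 T and NK cell and 14 B and plasma cell genes tested had none separated in either direction. Of 25 endothelial genes 1 lay above and 0 below, and of 28 stellate cell and fibroblast genes 0 above and 2 below. Red blood cell genes had a median of -1.14 over 10 genes (-0.70 without ND replicate 4), with 1 below (Slc4a1) and 7 lower at an unadjusted p under 0.05. Their summed level was 710.7, 1359, 1196 and 2914 on KD and 4035, 1626, 4915 and 10969 on ND, which overlap and are highest in ND replicate 4. Of 20 tumor and fetal genes 1 lay above (Afp, at 2.42 to 3.35 on KD and 0.492 to 1.82 on ND) and 2 below (Sox9 and Mycn), and the list's median was 0.05. The part of other cells in the differences described above was not tested. Of the fat, pancreas, gut and muscle markers, the pancreatic genes Cela3b, Prss2, Cpa1 and Try5 were at 0 in all 8 libraries.

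The diet difference was also set against that in the tumors, with a test of the difference between tissues in the fit of all 16 libraries. There 2109 genes (15.7%) passed the test of diet in tumor, and for 83 (0.618%) the diet difference itself differed between tissues. Of these 83, 41 were higher on KD in nontumor liver and lower in tumor, 24 were the reverse, 15 were lower in both, 2 were higher in both and 1 had a difference of exactly 0 in one tissue. The test of diet in tumor was passed by 77 of the 83, and that in nontumor liver by 3. For most of them the direction in nontumor liver is therefore uncertain. Among the 7 genes that passed in nontumor liver, the diet difference differed between tissues for 3. Scd1 had a difference of -0.87 ± 0.39 in tumor (209.3 to 668.2 on KD and 452.5 to 1143 on ND), and nontumor minus tumor was -3.46 ± 0.55 (adjusted p = 0.0176). Cyp2c69 was at most 1.86 rescaled TPM in any tumor (-0.08 ± 0.41, adjusted p of the difference between tissues = 0.0176). Ugt2b37 was likewise low in tumor, at 0 to 2.87 (0.74 ± 0.31, adjusted p of the difference = 0.0242). Both entered the test through their levels in nontumor liver and had little room to fall in tumor on this scale, so their test between tissues does not compare the responses.

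Atg16l2 and Cyp7a1 moved in the same direction in tumor. Atg16l2 fell in tumor by 1.32 ± 0.18 (adjusted p = 0.000778), from 10.1 to 13.6 on ND to 3.04 to 5.03 on KD, and the tissues differed by -0.08 ± 0.25 (adjusted p = 0.903). Cyp7a1 rose in tumor by 1.54 ± 0.25 (adjusted p = 0.00187), where ND tumors were between 0 and 0.0325 and KD tumors between 1.12 and 4.38. With ND tumors this near 0 the added 1 sets the size of that difference, and it was not compared with the one in nontumor liver. Cpt1a had a difference of 1.42 in tumor against 0.18 in nontumor liver, and the difference between tissues did not pass (adjusted p = 0.0697). Among genes outside the 7, Cyp2c40 (adjusted p = 0.0302), the Kupffer gene Cd5l (0.0391), the kynurenine pathway enzyme Kynu (0.0462) and the chaperone gene Hyou1 (0.0340) passed the test between tissues, each lower on KD in nontumor liver and higher in tumor. Cyp2c40 was likewise low in the tumors, at 0.0877 to 3.98. On the deposited values Kynu and Hyou1 differed by 0.28 and 0.53 in nontumor liver, against 0.69 for the median gene. Cd5l, for example, differed by -1.04 ± 0.40 in nontumor liver and by 1.72 ± 0.40 in tumor. For the whole endoplasmic reticulum list the median was -0.50 in nontumor liver and 0.46 in tumor, with 1 of 28 genes passing the test between tissues.

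**Figure D5:**
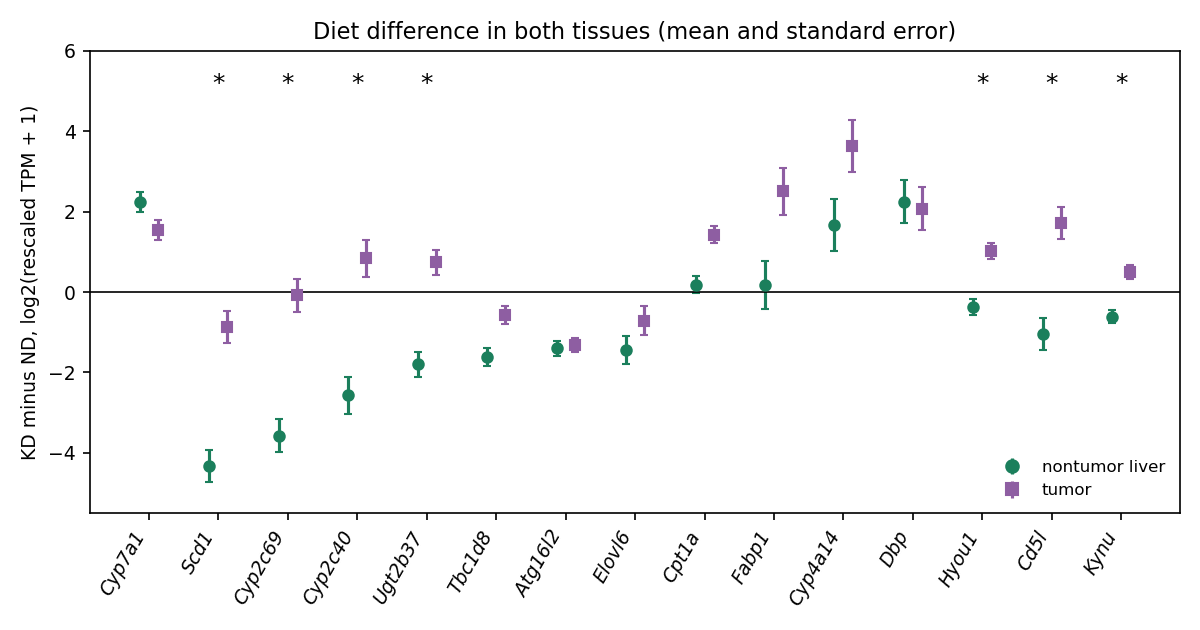
KD minus ND on log2(rescaled TPM + 1) in nontumor liver (green circles) and tumor (purple squares), points with standard errors, for genes named in the text; an asterisk marks an adjusted p under 0.05 for the difference between tissues. Scd1, Cyp2c69, Cyp2c40 and Ugt2b37 lie below 0 in nontumor liver and nearer to or above 0 in tumor, while both points of Atg16l2 lie close together. Cyp2c69, Cyp2c40, Ugt2b37 and, on ND, Cyp7a1 are at low TPM in tumor, where the added 1 limits a difference.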

How the data were processed

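Polyadenylated RNA of 16 samples was sequenced on an Illumina instrument, per the labels' protocols. FastQC, HISAT2, SAMtools and featureCounts with the build mm10 are named in the submitters' processing notes, without versions. The authors deposited 1 table of TPM values per gene, with no counts. Groups and replicates came from the sample titles, matched to the table's columns by diet letters and number. Whole reads were recovered from the TPM steps for all 20601 genes within a tolerance of 0.001 read and were used for depth and for 1 alternative test.

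TPM values were divided by median-of-ratios factors over 12119 genes above 0 in all 16 libraries. The diet contrast in nontumor liver, that in tumor and their difference were fitted in limma 3.58.1 (R 4.3.3) on log2(rescaled TPM + 1) with 4 groups sharing 1 variance estimate, and adjusted by Benjamini-Hochberg over 13432 genes. A fold change on this scale understates that of low genes. P-values reflect only how these libraries scatter. Positions came from GENCODE M21 and promoter windows from RefSeq (GRCm38.p6), aligned with Biopython 1.88. Windows of Scd1 and Cyp7a1 were not used here.

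Named genes were up to 12 rises and 12 falls among genes that passed with at least 5 rescaled TPM, up to 3 members that passed from each of 44 lists or else the most abundant one, a set of known diet genes, and members that make up a count of separated genes, which were chosen after their values were seen. The comparison, lists and members were chosen with earlier results of these data known. A mean ± SD is over 4 libraries. Alternatives changed the scale, pseudocount, filter, libraries fitted, weights, replicate block and corrections for transcript length and GC content. A few members of the lists are counted but not reported here by name.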

Additional observations from a re-analysis of the deposited data

Results flagged for a closer look

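The diet difference in nontumor liver was further below 0 than that in tumor for 7 described genes, by an interaction term in limma with Benjamini-Hochberg adjustment over all genes. On the log2 scale, nontumor minus tumor, it was -3.46 for Scd1 (adjusted p = 0.0176), -3.50 for Cyp2c69 (0.0176), -3.41 for Cyp2c40 (0.0302), -2.54 for Ugt2b37 (0.0242), -2.77 for Cd5l (0.0391), -1.40 for Hyou1 (0.0340) and -1.12 for Kynu (0.0462). Cyp2c69, Ugt2b37 and Cyp2c40 were at most 1.86, 2.87 and 3.98 rescaled TPM in any tumor and entered the test through nontumor liver, so with the added 1 they could hardly fall in tumor and the term does not compare responses there.

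Single libraries stood far from the other 3 of their diet in 14 of 292 groups of 4 checked with Dixon's test on log2 values. Chance alone flags about 1 in 20 such groups. On KD, replicate 3 was low for Hmgcs1 (36.1 rescaled TPM) and Arg1 (789.5), replicate 2 was low for Cps1 (190.7) and Nr1i3 (20.3) and high for Hsd17b13 (252.8), and replicate 4 was high for Ciart (26.3) and low for Vldlr (0.652). On ND, replicate 4 was high for S100a9 (46.8) and H19 (88.5) and low for Insig1 (47.4), and replicate 1 was high for Eng (114.0) and Socs2 (34.7) and low for Asns (0.472) and Cd5l (35.8).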

How the results depend on the processing

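Scd1 and Cyp7a1 passed in every setting run. Of the other 5 genes that passed, Gm11827 and Ugt2b37 were lost most often. The counts of genes that passed (1 higher and 6 lower) became 60 and 5 on the deposited values, 7 and 6 with a common sum, 1 and 1 with factors from the 8 nontumor libraries or with only those 8 fitted, 1 and 3 with a pseudocount of 0.1, 6 and 4 with no filter, 2 and 8 with the filter on the 8 libraries, 230 and 203 with array weights, and 2 and 10 with length and GC trends removed. The settings chosen after seeing the data gave 2 and 4 with voom on recovered reads, 61 and 72 with array weights on the 8 libraries, 3 and 9 with length and GC removed without ND replicate 4, 8 and 14 with the length trend as a covariate, and 3 and 10 with its sign as a term. Leaving out each library in turn gave 1 to 4 higher and 4 to 9 lower, with 4 and 7 without ND replicate 4. The causes were not tested.

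The replicate block gave 2 higher and 6 lower as a fixed term, 1 and 6 as a random term and 1 and 6 with the length and GC correction, and it ended the call of none of the 7 genes. Same-numbered KD and ND libraries, which come from different mice, did not deviate together (correlations of -0.29, 0.11, -0.26 and 0). For nontumor and tumor libraries of the same number the correlations were -0.01, 0.07, -0.05 and 0.16 on KD. On ND they were -0.11, 0.14, -0.11 and -0.07. The numbers were not taken to pair samples, and these values do not decide which tumor and nontumor libraries share a mouse.

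Genes with all KD libraries above or below all ND libraries (428 and 375) were 933 and 2 on the deposited values and 466 and 170 with a common sum. They were 575 to 712 above and 493 to 620 below with 1 library left out, which eases the condition. Of 146 genes followed, 44 turned from below to above 0 on the deposited values, where the median gene differed by 0.69. Sign changed for 12 with array weights, 4 with a common sum and 2 to 10 with 1 library left out, while none of the 7 that passed turned. The depth of ND replicate 4, 3518966 reads, limits the genes of few reads.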
